A study of Mus musculus with 2 samples.

Results

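The cells described here are 294 hair follicle keratinocytes that carried transcripts of at least 3 of the 4 genes Fgf5, Fbln5, Pid1 and Kcnk1 together with the contractile transcripts Tagln and Acta2. They come from 2 single-cell libraries of mouse skin, replicate 1 and replicate 2, which form 1 group. Both libraries hold wild type hair follicle stem cells of strain C57BL/6;CD1 at postnatal day 32, in anagen, the phase in which hair grows. The cells were sorted on the surface protein CD34 and on H2BGFP, a green fluorescent histone driven by the K14 promoter, which is active in basal keratinocytes. Nothing in the labels says whether the libraries came from separate animals or from pooled ones. The p-values therefore cover only how differences between cell classes varied across these libraries. That spread was estimated in large part over all genes together, not gene by gene.

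Members were chosen by transcript counts alone. A barcode was kept if it had 1000 or more genes and if no more than 10% of its unique molecular identifiers (UMIs, 1 per captured transcript) were mitochondrial. A kept cell was a keratinocyte with at least 1 UMI of Krt5 or Krt14, the basal keratins. A keratinocyte was a gated cell when at least 3 of the 4 genes Fgf5, Fbln5, Pid1 and Kcnk1 were detected and Tagln and Acta2 together gave at least 5 UMIs. The rule took 130 of 3879 keratinocytes in replicate 1, or 3.35% (exact 95% binomial interval 2.81 to 3.97), and 164 of 3005 in replicate 2, or 5.46% (4.67 to 6.33). In all, 294 of 6884 keratinocytes, of 6959 kept cells and of 11672 barcodes were taken. The intervals do not overlap, and the mean share was 4.40 ± 1.49% (SD, n = 2). With at most 5% mitochondrial UMIs the shares were 6.79% and 7.04%.

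The outer root sheath is the basal epithelium that runs from the bulge, where follicle stem cells rest, down to the bulb of the growing follicle. Fgf5 encodes a secreted fibroblast growth factor that is known to end anagen, and mice without it grow long hair. Fbln5 encodes fibulin-5, a matrix protein that helps to assemble elastic fibres, Pid1 a phosphotyrosine-binding adaptor and Kcnk1 a potassium channel subunit. Tagln (transgelin, an actin-binding protein) and Acta2 (smooth muscle actin) are best known from smooth muscle and from the dermal sheath that surrounds the follicle. The name lower sheath cannot be checked, since no position was measured, and the cells are called by their genes.

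The values of the genes in the rule are given as a description, without a test. In the gated cells of replicate 1, Fgf5 was detected in 125 of 130 cells with a mean of 3.54 UMIs per cell. Replicate 2 had Fgf5 in 157 of 164 cells with a mean of 3.71 UMIs. Fbln5 was detected in 114 and 147 cells, Kcnk1 in 110 and 130, and Pid1 in 85 and 103. Pid1 was thus the gene most often missing from the 4. All 4 genes were found in 44 cells of replicate 1 and 45 of replicate 2. Tagln and Acta2 together had a median of 100 UMIs per gated cell in replicate 1, from 6 to 607, and of 80 in replicate 2, from 5 to 423. Acta2 was detected in 129 of 130 and 143 of 164 gated cells, while Tagln was present in every gated cell.

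The contractile threshold removed few cells. Among keratinocytes with at least 3 of the 4 genes, 5 cells of replicate 1 and 17 of replicate 2 lay just inside it, with 5 to 14 UMIs of Tagln and Acta2. Just outside, with 0 to 4 UMIs, lay 3 and 4 cells. The lowest values inside were 6 and 5 UMIs, and the highest outside were 2 and 4. Across all keratinocytes, the share with at least 5 such UMIs was 35.5% and 24.7% in cells with none of the 4 genes. It was 69.8% and 70.8% with 1 gene, 89.9% and 91.2% with 2, 96.6% and 96.7% with 3, and 100% and 100% with 4. Cells thinned at random to 5000 UMIs each, which sets depth equal, gave 30.1% and 22.6% with none and 94.3% and 90.3% with 2 of the genes. All these genes belong to the rule and were chosen with earlier results of these data known. The trend is therefore a description without a test.

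**Figure D1:**
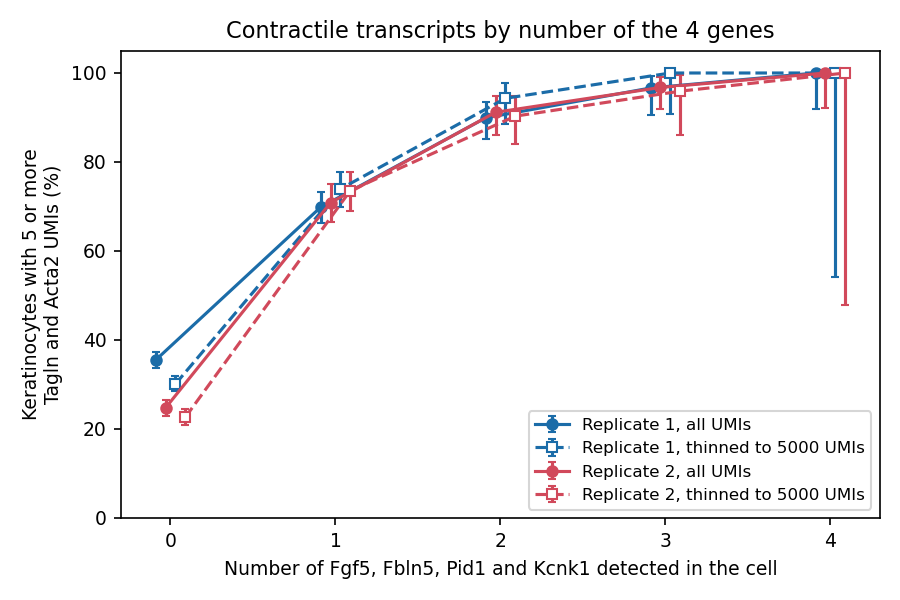
Share of keratinocytes with 5 or more Tagln and Acta2 UMIs (percent) against the number of Fgf5, Fbln5, Pid1 and Kcnk1 detected in the cell, by library, with exact 95% binomial intervals that cover counting error only; dashed lines are cells thinned to 5000 UMIs. Both libraries go from 35.5% and 24.7% with no gene to 100% with all 4. All genes shown belong to the rule, so the trend is a description.

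Gated cells were deeper than the rest, and a rule that asks for detected genes favours deep cells. Their median was 12420.5 and 12411 UMIs per cell, against 9820 and 9582 in all other keratinocytes. The median mitochondrial share was 4.97% and 3.68%, against 6.08% and 4.47%. No barcode was shared between the libraries among gated cells, and 11 were shared among all barcodes. Scrublet, a doublet caller, set no usable threshold and marked 0 cells in either library. In its place, the 348 and 206 barcodes with the highest doublet scores were taken, not all of them kept cells. These held 8 gated cells of replicate 1 (6.15%) and 20 of replicate 2 (12.2%). The corresponding shares of all other keratinocytes were 7.63% and 5.88%.

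The 39 and 36 kept cells without a Krt5 or Krt14 UMI are called cells without keratin below, after these 2 genes only. They were a mixed set. In them 6 fibroblast markers summed to 29256 and 25002 counts per 1000000 UMIs, and 5 immune markers to 4093 and 13982. The 7 upper follicle markers summed to 4843 and 52.8. Krt17 was seen in 22 and 13 and Krt15 in 10 and 14 of these cells, so keratinocytes may be among them. Median depth of the 39 and 36 cells was 10636 and 11890 UMIs. None of these 39 and 36 cells met the other parts of the rule, which allows a share of up to 7.69% and 8.33%. Fgf5 was seen in 1 cell of each library, and Kcnk1 in 0 and 1. Fbln5 was seen in 18 and 11 and Pid1 in 14 and 10 of them. Fbln5 and Pid1 were thus not confined to cells with a Krt5 or Krt14 UMI. These cells can express such genes themselves, and free RNA was not measured.

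A list of 7 smooth muscle and pericyte markers was nearly absent from the gated cells. Smooth muscle genes outside this list were not, with Tagln in every gated cell and Cnn1 in 39 of 130 and 46 of 164. Of the 7 markers, Des, Rgs5, Itga8 and Higd1b were at 0 in both libraries. The 7 markers summed to 3 UMIs in replicate 1 and 3 in replicate 2, or 1.62 and 1.35 CPM (counts per 1000000 of the summed UMIs). All other keratinocytes had 23.2 and 19.3 CPM of these markers, and the cells without keratin 254 and 283. In all other keratinocytes, Notch3 alone supplied 682 of the 963 and 292 of the 617 UMIs of the list. Myh11, the smooth muscle myosin heavy chain, gave 1 and 0 UMIs over all gated cells. The 6 fibroblast markers summed to 15.7 and 40.03 CPM in gated cells, with Pdgfra at 0, against 581 and 492 CPM in all other keratinocytes. Dcn, which encodes the dermal proteoglycan decorin, supplied 73 of the 89 fibroblast UMIs of replicate 2.

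For the tests, raw UMIs were summed over the cells of a class in each library, so that a class has 2 values, given below as replicate 1 and replicate 2. Gated cells were first compared with all other keratinocytes by edgeR's quasi-likelihood test with the library as a term, and Benjamini-Hochberg adjustment over 12982 genes without the 8 genes of the rule. The fit rests on 4 sums and has 1 residual degree of freedom. To this edgeR added a prior of 25.3 degrees of freedom (median), estimated over all genes, on which the small p-values rest. The 4 genes lead a cell state that was seen earlier in these same cells, so genes that accompany them there are not independent of the choice, and the p-values describe the gated populations. Of the genes tested, 1199 (9.24%) were higher and 1477 (11.4%) lower at an adjusted p under 0.05, or 20.6% in all. Each list count against all other keratinocytes given below is to be read beside these shares. Without TMM scaling between the sums, 1488 were higher and 1403 lower, so which direction held more genes depended on the scaling. Without the library term, 283 were higher and 278 lower. When cells were chosen on a random 0.5 of their UMIs and measured on the remainder, 513 were higher and 781 lower.

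**Figure D2:**
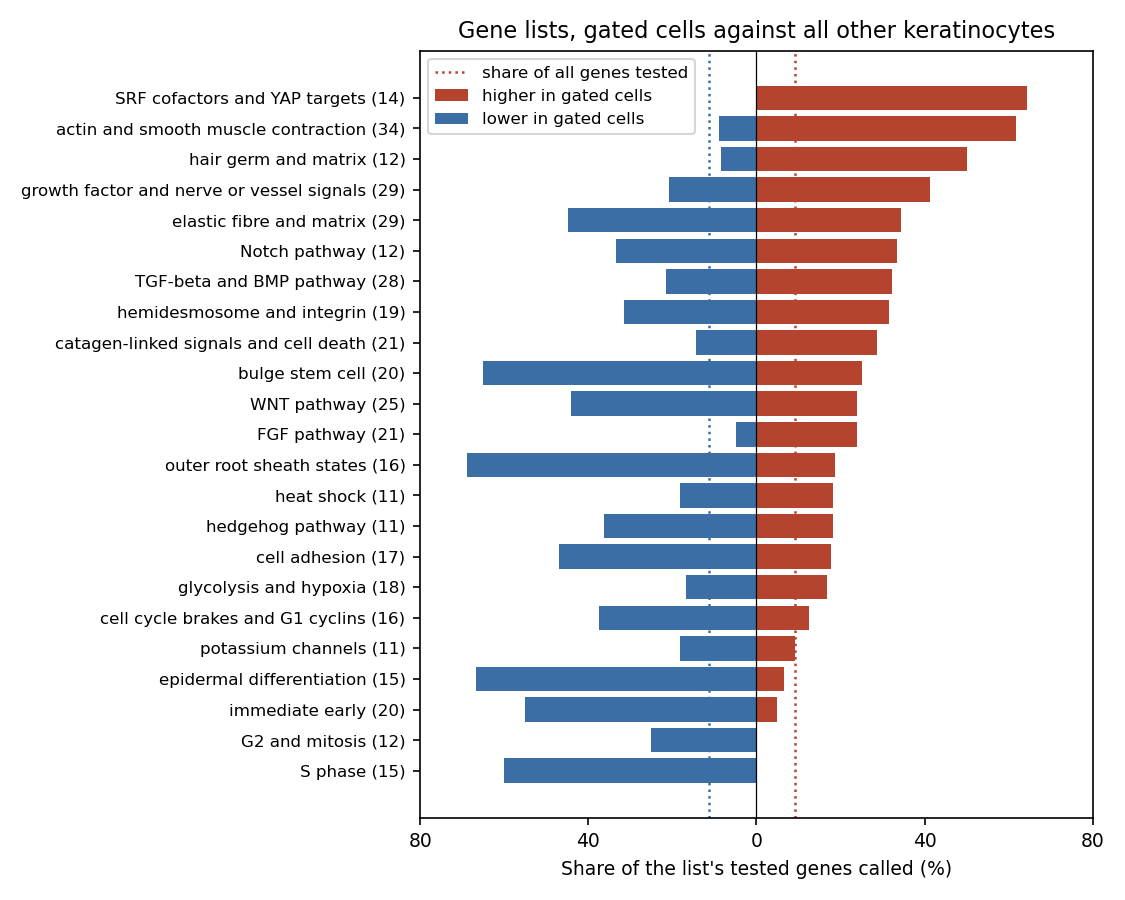
Share of each gene list (percent of its tested genes, number in brackets) that was higher (right) or lower (left) in gated cells than in all other keratinocytes, edgeR adjusted p under 0.05; dotted lines are the shares of all genes tested, 9.24% and 11.4%. The actin and smooth muscle contraction list has 21 of 34 genes higher, and the bulge list 13 of 20 lower.

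The 16 genes named as highest include 5 enzymes and transporters, grouped here for reading after their values were seen. Slc7a11, the cystine importer that feeds glutathione synthesis, stood at 226 and 197 CPM in gated cells and at 20.8 and 19.7 in all other keratinocytes. Both gated values lie far above both others, a log2 fold change of 3.33 ± 0.12 (SE; edgeR adjusted p = 1.31e-17). Ggt1, a gamma-glutamyltransferase that breaks down extracellular glutathione, had 258 and 340.0 against 41.2 and 45.4 CPM (2.73 ± 0.11). Asns, asparagine synthetase, had 110.5 and 122 against 16.6 and 27.7 CPM (2.37 ± 0.14). Vnn1, a pantetheinase, had 51.5 and 58.0 against 7.58 and 7.30 CPM (2.83 ± 0.18), and the zinc importer Slc39a10 had 1239 and 1564 against 198 and 268 (2.54 ± 0.09). Gated and other values did not overlap for any of these 5 genes, which were chosen for high fold changes of 1 direction in both libraries. Slc7a11 was detected in 52.3% and 51.2% of gated cells after thinning, in 6.80% and 6.66% of all other keratinocytes, and in 1 of 33 and 2 of 31 cells without keratin.

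Slc7a11 and Asns are both known as targets of the amino acid response, which acts through a short element called CARE. The letters TGATGNAA were searched on both strands in the RefSeq promoters of build GRCm38.p6 (250 bases before to 50 after a gene's start). They occur in 3.97% of 32851 promoters, or for 1219 of 27025 genes. Of the 16 genes named as highest in gated cells, 12 had a promoter entry, with 17 promoters. These letters were found in 2 of the 17, those of Asns and Slc7a11. They are shown because both genes rise in the same cells, with the matching letters in capitals, read 5′ to 3′ along the gene. The Asns window lies at chr6:7693160-7693459 on the minus strand, and the match is 23 to 16 bases before the start. The Slc7a11 window lies at chr3:50443564-50443863 on the minus strand and holds the letters on each strand, 66 to 59 and 47 to 40 bases before the start.
Asns: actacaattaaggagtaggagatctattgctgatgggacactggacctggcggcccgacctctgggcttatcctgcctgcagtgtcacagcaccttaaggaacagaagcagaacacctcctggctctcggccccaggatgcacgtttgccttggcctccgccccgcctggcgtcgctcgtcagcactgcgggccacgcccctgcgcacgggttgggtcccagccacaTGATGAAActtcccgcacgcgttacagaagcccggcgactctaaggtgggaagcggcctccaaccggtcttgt
Slc7a11: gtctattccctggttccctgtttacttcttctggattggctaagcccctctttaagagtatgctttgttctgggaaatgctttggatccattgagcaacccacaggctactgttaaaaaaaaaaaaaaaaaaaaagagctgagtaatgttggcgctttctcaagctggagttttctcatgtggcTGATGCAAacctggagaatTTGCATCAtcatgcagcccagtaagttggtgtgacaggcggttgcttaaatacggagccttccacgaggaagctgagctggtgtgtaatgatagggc
A match describes the letters and says nothing of binding. Among the genes of the rule, 7 had a promoter entry and Fbln5 alone held the CARE letters.

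The other genes named as higher encode proteins of several kinds. Flrt2, a membrane protein of cell adhesion and axon guidance, had 551 and 495 CPM in gated cells and 55.7 and 70.9 in all other keratinocytes (3.002 ± 0.11, edgeR adjusted p = 3.45e-17). Fhl1, a LIM-domain protein best known from muscle, had 419 and 304 against 43.5 and 40.1 CPM (3.04 ± 0.11). Porcn, the acyltransferase that WNT ligands need for secretion, had 128 and 144 against 15.9 and 18.6 CPM (2.93 ± 0.13). All 3 genes were far higher in both libraries than in either set of other keratinocytes. Ackr3, a scavenging chemokine receptor, had 205 and 146 against 28.0 and 32.8 CPM (2.46 ± 0.14). Il6st, the shared receptor chain gp130 of the interleukin-6 family, had 125 and 109 against 20.2 and 21.6 CPM (2.43 ± 0.13). Cux1, a homeobox transcription factor, had 329.9 and 453 against 50.4 and 94.0 CPM (2.43 ± 0.11), and after thinning it was detected in 68.5% and 80.9% of gated cells against 8.32% and 17.8% of the rest.

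The remaining 5 of these genes passed the same test. Rasl11a, a small GTPase, had 359.7 and 452 against 46.3 and 72.1 CPM (2.75 ± 0.11). Adamts5, a protease that cleaves aggrecan and versican, had 123 and 167 against 23.4 and 19.0 CPM (2.73 ± 0.15). Ddit4l, an inhibitor of mTOR signalling, had 136 and 168 against 25.5 and 21.2 (2.65 ± 0.13), and Lhfp, a tetraspan membrane protein, 229.7 and 251 against 41.7 and 46.3 (2.40 ± 0.11). Upk1b, a uroplakin, had 55.8 and 48.6 against 15.5 and 5.70 CPM (2.37 ± 0.21), and its adjusted p was 0.055 without the library term. The log2 fold changes of all 16 genes lay between 2.37 and 3.33. The values of gated and other cells did not overlap for any of them. Both follow in large part from their choice by high fold change and shared direction in both libraries.

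Most contraction genes beyond Tagln and Acta2 were higher. Of 36 actin and smooth muscle contraction genes, 34 were tested and 21 were higher and 3 lower, with a median log2 fold change of 0.49 against -0.03 over all genes tested. Tagln itself, part of the rule, stood at 5386 and 5214 CPM in gated cells and 1264 and 1195 in the rest, and Acta2 at 2663 and 1785 and 596 and 441. Cnn1 (calponin, a marker of differentiated smooth muscle) had 36.8 and 36.4 CPM in gated cells and 2.51 and 4.76 in all other keratinocytes (3.32 ± 0.25, edgeR adjusted p = 3.89e-11). Cnn1 was seen in 30.0% and 28.0% of gated cells and in 1.92% and 3.03% of the rest. The regulatory light chain gene Myl9 had 794 and 604 against 245 and 166 CPM (1.73 ± 0.09), and the focal adhesion gene Zyx 364 and 253 against 145 and 96.3 (1.31 ± 0.10). The tropomyosins Tpm1 and Tpm2 rose by 1.28 ± 0.09 and 1.15 ± 0.10 on the log2 scale.

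Mylk went the other way. Mylk, myosin light chain kinase, gave 0 and 2 UMIs in all gated cells, or 0 and 0.899 CPM, against 8.98 and 8.39 CPM in the rest (-4.18 ± 0.63, edgeR adjusted p = 1.06e-05). Des, the muscle intermediate filament desmin, was at 0 in gated cells and at 1.25 and 3.41 CPM in all other keratinocytes. That is at least 2.98-fold lower when 3 counts over both libraries are taken as the floor. Only 8 of 3749 and 13 of 2841 other keratinocytes held a Des UMI, so its absence from 130 and 164 gated cells says little. Myl12b fell by 0.88 on the log2 scale while its near-identical neighbour Myl12a rose by 0.67, and the counting may not separate this pair, nor Actb from Actg1. Actg2 and Lmod1, both smooth muscle genes, had log2 fold changes of 0.08 ± 0.74 and 0.71 ± 0.90 and did not pass the test. Without the library term 5 genes of the list were higher and 2 lower, and with separate UMIs for choosing and measuring 17 and 2.

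**Figure D3:**
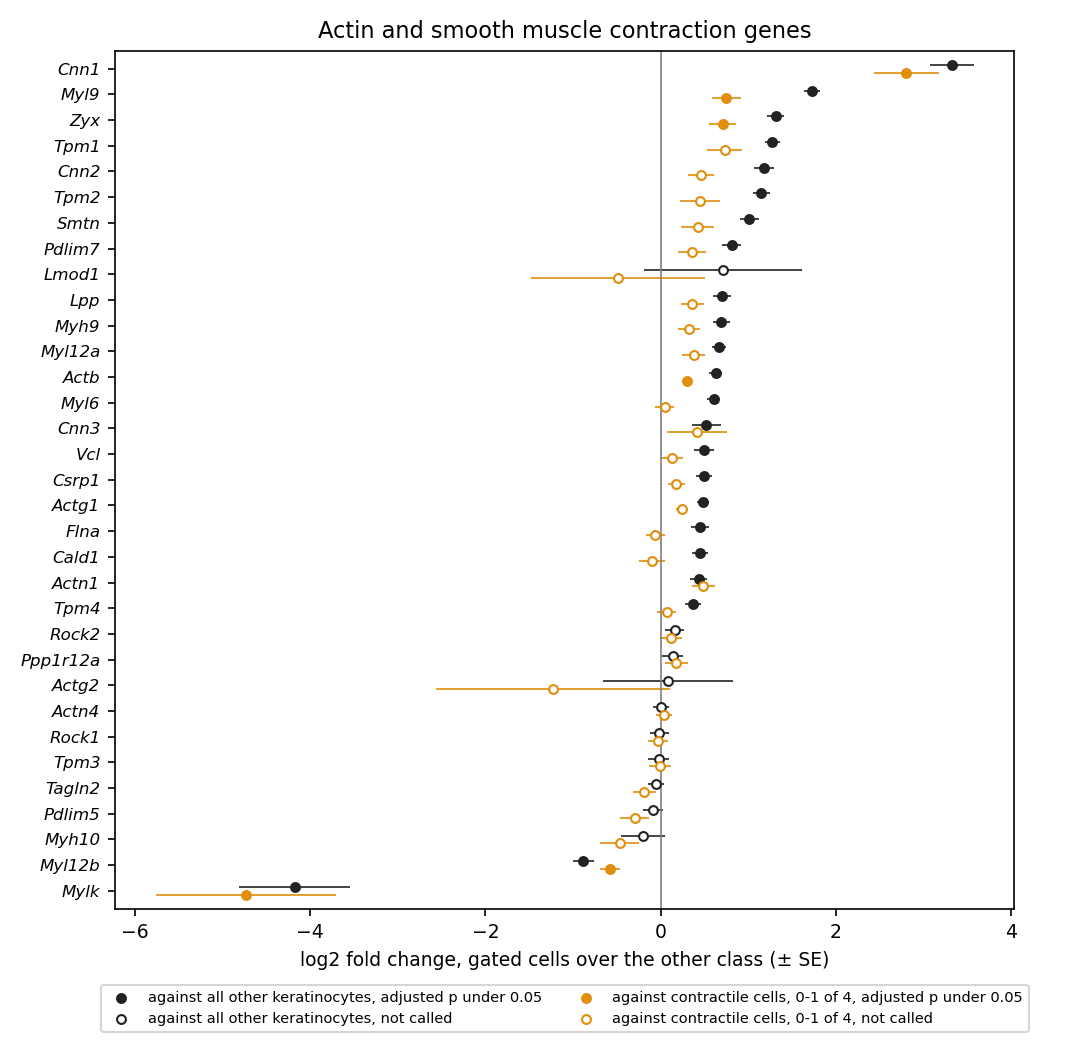
log2 fold change (x axis, ± SE) of 33 actin and smooth muscle contraction genes in gated cells over all other keratinocytes (black) and over contractile keratinocytes with 0 or 1 of the 4 genes (orange); filled points have an edgeR adjusted p under 0.05, and Des, at 0 in gated cells, is left out. Cnn1 is highest and Mylk lowest in both comparisons.

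The CArG box is the site of serum response factor, which drives many contractile genes. It was found in 1.63% of all 32851 RefSeq promoters, or for 488 of 27025 genes, on both strands, in the 300 bases searched. Of the contraction list, 32 genes had a promoter entry, with 38 promoters. The box was in 5 promoters, those of Actg1, Cnn2, Myl6, Myl9 and Vcl. All 5 genes were higher in gated cells, but so were 21 of the 34 tested genes of this list. Whether the box goes with a rise was not tested. Of the 16 genes named as highest, Fhl1 alone held it, and of the genes of the rule none of 7. Myl9 and Fhl1 are shown because they rise most among the genes with a match. The Myl9 window lies at chr2:156775214-156775513 on the plus strand with the box in capitals 161 to 152 bases before the start. The Fhl1 window lies at chrX:56779433-56779732 on the plus strand with the box 102 to 93 bases before the start.
Myl9: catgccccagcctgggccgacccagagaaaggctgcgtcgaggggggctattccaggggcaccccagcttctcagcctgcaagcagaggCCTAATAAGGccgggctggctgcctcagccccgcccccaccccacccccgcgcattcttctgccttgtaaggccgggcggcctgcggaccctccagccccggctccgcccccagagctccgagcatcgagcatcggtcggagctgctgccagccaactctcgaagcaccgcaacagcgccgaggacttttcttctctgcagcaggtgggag
Fhl1: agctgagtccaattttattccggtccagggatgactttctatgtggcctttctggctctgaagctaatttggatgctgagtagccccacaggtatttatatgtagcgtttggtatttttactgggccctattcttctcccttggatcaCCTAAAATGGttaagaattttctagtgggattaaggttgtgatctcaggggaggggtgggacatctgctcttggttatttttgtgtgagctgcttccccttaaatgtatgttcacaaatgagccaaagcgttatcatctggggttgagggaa
The absence of these letters from a window says nothing of the factor.

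Cofactors of serum response factor and targets of YAP, a sensor of cell tension, form the next list. Of 14 tested genes 9 were higher, with a median of 0.46. None was lower in edgeR's test after adjustment, 1 was at an unadjusted p under 0.05, and DESeq2 called none. Ctgf, a matricellular YAP target, had 79.6 and 85.9 CPM in gated cells and 23.8 and 54.0 in the rest (1.12 ± 0.17, edgeR adjusted p = 9.15e-06). The LIM protein gene Ajuba had 91.0 and 64.8 against 44.0 and 31.5 CPM (0.99 ± 0.13), and Mkl1, the actin-regulated cofactor itself, 29.2 and 23.4 against 19.8 and 15.2 (0.54 ± 0.19). Gated values were above the others in both libraries for all 3. The fit without that term called 1 gene of the list, and with separate UMIs for choosing and measuring 4 were higher and 1 lower.

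Matrix genes went both ways. Of 29 tested elastic fibre and matrix genes, 10 were higher and 13 lower, with a median of -0.30. The basement membrane collagens Col4a1 and Col4a2 were higher, with 684 and 610.3 against 239.9 and 238 CPM for Col4a1 (1.38 ± 0.09, edgeR adjusted p = 3.84e-12). Loxl1, a lysyl oxidase that acts on elastin together with fibulin-5, had 15.7 and 15.3 against 4.58 and 5.07 CPM (1.63 ± 0.27). Efemp2 (fibulin-4) had 53.6 and 50.4 against 23.6 and 22.0 (1.14 ± 0.15), and Fn1 (fibronectin) 223 and 171 against 110.4 and 76.6 (1.03 ± 0.11). Eln, which encodes elastin itself, gave 2 and 2 UMIs in gated cells. The microfibril genes Mfap2 and Mfap5 were lower, with 5.42 and 5.85 against 44.0 and 77.3 CPM for Mfap2 (-3.49 ± 0.23). Fbln1 and Fbln2 were lower too, at log2 fold changes of -2.73 ± 0.26 and -2.59 ± 0.24. Relatives also differed in direction, with Loxl2 higher and Lox lower, and Ltbp3 higher and Ltbp4 lower. Lox was near the floor, at 0 in gated cells and 1.53 CPM over both libraries in the rest. That is at least 2.07-fold lower with 3 counts as the floor. The 6 fibroblast markers, all lower, moved with these falls, at 15.7 and 40.03 CPM summed in gated cells and 581 and 492 in the rest, and their part in the result was not tested. Against other contractile keratinocytes, Loxl1, Col4a1 and Col4a2 were higher and Fbln2, Ltbp4 and Mfap2 lower, of 27 tested.

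FGF pathway genes other than Fgf5 gave 5 higher and 1 lower of 21 tested, with a median of 0.22. The higher genes were the ligand carrier Fgfbp1 (523 and 653 against 222 and 262 CPM, 1.22 ± 0.09), the feedback inhibitors Spry1, Spred1 and Dusp6, and the transcription factor Etv4. Spry1 had 122 and 73.8 against 39.6 and 25.7 CPM (1.52 ± 0.13, edgeR adjusted p = 4.06e-10). The receptor gene Fgfr2 was lower, with 24.9 and 29.2 against 66.5 and 90.4 CPM (-1.59 ± 0.15). Fgfr1, the main receptor for FGF5, had 89.4 and 76.5 against 78.5 and 75.5 CPM and did not pass the test (adjusted p = 0.836). Among potassium channels besides Kcnk1, the stretch-activated channel gene Kcnk2 was higher, at 177 and 191 against 90.9 and 87.3 CPM (0.99 ± 0.11). It was the 1 gene of 11 tested that was higher, and 2 were lower. Over all genes tested, 9.24% were higher and 11.4% lower, so 1 higher gene of 11 is near the general share.

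Bulge stem cell genes were mostly lower. Of 20 tested, 13 were lower and 5 higher, with a median of -0.78. Cd34, whose protein the sort selected on, had 68.2 and 45.9 CPM in gated cells and 83.1 and 101 in all other keratinocytes (-0.76 ± 0.15, edgeR adjusted p = 4.11e-04). After thinning, Cd34 was detected in 26.2% and 19.8% of gated cells, 30.1% and 33.1% of the rest, and 57.6% and 38.7% of cells without keratin. Its UMIs were thus not confined to cells with a Krt5 or Krt14 UMI. Sox9, a transcription factor of follicle stem cells, had 223 and 134 against 760.1 and 393 CPM (-1.71 ± 0.10). Krt24, a keratin of the bulge, was at 0 in gated cells and at 2.44 and 32.9 CPM in the rest, at least 21.3-fold lower over both libraries. That limit rests mostly on replicate 2, with 1049 UMIs in the rest against 101 in replicate 1. Krt24 was also rare in contractile keratinocytes with at most 1 of the 4 genes, at 3 of 1498 and 6 of 870 cells. The quiescence factors Nfatc1 and Foxc1 gave 5 and 3 UMIs in replicate 2 and none in replicate 1, against 10.0 and 22.4 and 11.4 and 17.98 CPM in other keratinocytes. Fst, which encodes the activin inhibitor follistatin, had 16.2 and 22.5 against 231 and 248 CPM (-3.67 ± 0.15).

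The stem cell genes that rose were Krt15, Lgr5, Tcf7l1, Nfib and Tbx1. Krt15 had 6317 and 6051 CPM in gated cells and 3057 and 5634 in the rest (0.52 ± 0.12), a difference that is large in replicate 1 and small in replicate 2. Lgr5, the R-spondin receptor of cycling follicle stem cells, had 147 and 178 against 99.3 and 121 CPM (0.51 ± 0.11, edgeR adjusted p = 6.11e-04). After thinning it was detected in 46.2% and 57.4% of gated cells and in 33.6% and 42.1% of the rest. Tcf7l1, a transcriptional repressor of the stem cell state, had 90.5 and 71.1 against 44.0 and 37.5 CPM (0.93 ± 0.13). Without the library term, edgeR called 6 bulge genes lower and none of the 20 higher, so the 5 rises rest on the fit within libraries. At an unadjusted p under 0.05, edgeR without the library term gave 4 higher and 12 lower of the 20, and DESeq2 with that term 4 higher and 10 lower after adjustment.

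Most genes of other outer root sheath states were lower. Of 16 tested, 11 were lower and 3 higher, with a median of -1.12. Wfdc18, a secreted protease inhibitor-like protein, had 3.79 and 0.450 CPM in gated cells and 107 and 41.7 in the rest (-5.24 ± 0.28, edgeR adjusted p = 4.85e-14). Dclk1, a microtubule-linked kinase, had 2.71 and 0.450 against 50.7 and 27.7 CPM (-4.75 ± 0.34), and Barx2, a homeobox gene, 72.6 and 42.3 against 387 and 243 (-2.52 ± 0.12). The keratin Krt17 had 3602 and 2932 against 8405 and 5611 CPM (-1.13 ± 0.08). Higher were the thyroid hormone deiodinase Dio3 (126 and 80.5 against 43.9 and 24.1 CPM, 1.57 ± 0.13), the connexin Gjb2 (1.16 ± 0.11) and Id4 (0.33 ± 0.09). Edn2, an endothelin gene, was lower at 74.2 and 46.8 against 109 and 89.3 CPM (-0.78 ± 0.13).

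**Figure D4:**
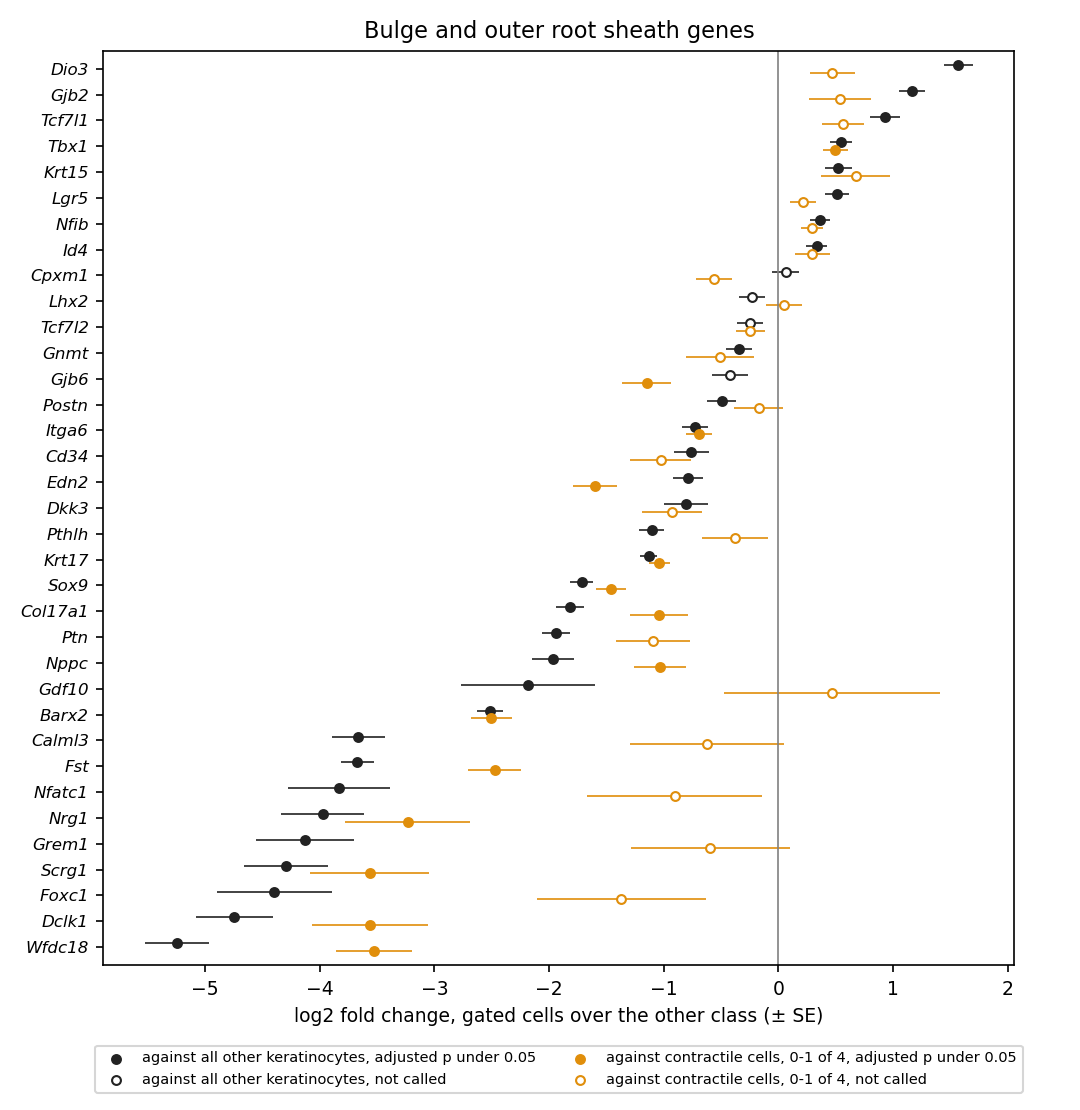
log2 fold change (x axis, ± SE) of 35 bulge and outer root sheath genes in gated cells over all other keratinocytes (black) and over contractile keratinocytes with 0 or 1 of the 4 genes (orange); filled points have an edgeR adjusted p under 0.05, and Krt24, at 0 in gated cells, is left out. Dio3 and Gjb2 are highest and Wfdc18 lowest against all other keratinocytes.

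Of 12 tested genes of the hair germ and matrix, 6 were higher and Lef1, at 0 in gated cells, was lower, with a median of 0.72. Lef1 was near the floor in the rest too, at 1.84 CPM over both libraries. That is at least 2.50-fold lower with 3 counts as the floor. Dlx3, a homeobox factor of hair differentiation, had 66.1 and 55.8 CPM in gated cells and 17.8 and 10.5 in the rest (2.09 ± 0.16, edgeR adjusted p = 1.12e-10). Msx1 and Msx2, homeobox targets of BMP signalling, had 27.1 and 29.2 against 8.73 and 8.64 and 22.7 and 29.2 against 8.93 and 10.4 CPM. Hoxc13, a regulator of hair keratins, had 158 and 136 against 86.2 and 49.98 CPM (1.10 ± 0.13), and P-cadherin (Cdh3) 246 and 205 against 134 and 103 (0.88 ± 0.10). The hedgehog receptor and target gene Ptch1 had 145 and 148 against 48.7 and 120.4 CPM (0.86 ± 0.17), with the larger gap in replicate 1. Of the 12, 3 were higher without the library term.

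Among WNT genes, 6 were higher and 11 lower of 25 tested, with a median of -0.77. Fzd1, a WNT receptor, had 226 and 236 CPM in gated cells and 84.9 and 60.3 in the rest (1.64 ± 0.12, edgeR adjusted p = 1.83e-11). The ligand Wnt6 had 24.4 and 41.4 against 8.30 and 14.6 CPM (1.47 ± 0.19). The secreted WNT inhibitor Sfrp1 had 35.2 and 47.2 against 358 and 509.6 CPM (-3.45 ± 0.12). Porcn and Sfrp1 thus moved in opposite directions in both libraries.

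TGF-beta and BMP genes gave 9 higher and 6 lower of 28, with a median of 0.14. Id3, a BMP-induced inhibitor of differentiation, had 2298 and 1852 CPM in gated cells and 896 and 839 in the rest (1.198 ± 0.08, edgeR adjusted p = 9.42e-12). The activin subunits went apart: Inhba had 27.1 and 12.6 against 11.0 and 5.76 CPM (1.18 ± 0.24), and Inhbb 8.67 and 3.60 against 54.4 and 33.4 (-2.92 ± 0.24). Notch genes gave 4 higher and 4 lower of 12. The ligands Dll1 and Jag2 and the fringe Lfng were higher, with 35.7 and 48.6 against 10.1 and 14.5 CPM for Lfng (1.73 ± 0.18). The receptors Notch1 and Notch3 were lower, with 43.9 and 21.6 against 169.7 and 77.2 CPM for Notch1 (-1.96 ± 0.14). Of 11 hedgehog genes 2 were higher and 4 lower. Hhip and Cdon, a hedgehog inhibitor and a coreceptor, were at 0 in gated cells. In all other keratinocytes Hhip stood at 2.34 and 7.52 CPM and Cdon at 2.53 and 5.95, which over both libraries together makes them at least 6.23-fold and 5.45-fold lower.

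Signals linked to the end of anagen included 6 higher and 3 lower genes of 21, with a median of 0.09. Over all genes tested, the shares were 9.24% and 11.4%. The prolactin receptor gene Prlr had 107 and 106 CPM in gated cells and 28.2 and 34.7 in the rest (1.71 ± 0.13, edgeR adjusted p = 4.97e-11). Vdr, the vitamin D receptor, which the hair cycle needs, had 561 and 412 against 161 and 150.1 CPM (1.58 ± 0.10). Of 29 growth factor, nerve and vessel signals, 12 were higher and 6 lower. Igfbp7, an abundant secreted binding protein, had 2245 and 2206 against 599.9 and 658 CPM (1.77 ± 0.08), and Igfbp3 90.5 and 125 against 23.3 and 37.3 (1.79 ± 0.13). Edn1, which encodes the vasoconstrictor endothelin-1, had 73.7 and 83.2 against 16.7 and 23.8 CPM (1.91 ± 0.14). The guidance ligands Slit3 and Ntn1 had 201 and 228 against 66.0 and 58.5 and 11.4 and 13.5 against 1.91 and 1.69 CPM. Nrg1, an ErbB ligand, gave 8 and 0 UMIs in gated cells and 46.3 and 15.4 CPM in the rest (-3.97 ± 0.36).

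Of 19 integrin and hemidesmosome genes, 6 were higher and 6 lower. Itgb1, the shared beta chain of many matrix receptors, had 342 and 396 CPM in gated cells and 173 and 253 in the rest (0.76 ± 0.10). The hemidesmosome genes Col17a1 and Itga6 were lower, with 55.8 and 60.3 against 166 and 230.5 CPM for Col17a1 (-1.82 ± 0.12, edgeR adjusted p = 6.04e-12). Of 17 cell adhesion genes 3 were higher and 8 lower. E-cadherin (Cdh1) had 44.4 and 27.9 against 116 and 75.4 CPM (-1.46 ± 0.14), opposite to P-cadherin, and the desmosome genes Dsg3, Dsc3, Dsp, Jup and Pkp1 were all lower.

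Most epidermal differentiation genes were lower. Of 15 tested, 10 were lower, Lor was higher and 4 did not pass, with a median of -1.98, or -1.86 with the gene at 0 in gated cells set to its floor. Sbsn and Dmkn, secreted proteins of the suprabasal epidermis, had 32.0 and 45.4 against 511 and 416 and 36.8 and 25.2 against 267 and 585 CPM. Lor, which encodes loricrin of the cornified envelope, was higher, with 36.3 and 35.5 CPM in gated cells and 3.96 and 5.32 in the rest (2.91 ± 0.23, edgeR adjusted p = 8.32e-11). The Lor values rest on 67 and 79 UMIs. After thinning Lor was detected in 10.8% and 18.5% of gated cells, in 1.83% and 2.63% of the rest, and in none of 33 and 31 cells without keratin, which allows up to 9.09% and 9.68%. Against other contractile keratinocytes, Sbsn and Krtdap were lower and Lor higher, of 14 tested. Basal keratins, which the rule asks for at 1 UMI, were lower, with Krt14 at 1210.0 and 1215 against 4472 and 3912 CPM and Krt5 at 1513 and 1711 against 2561 and 3400.2.

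Some genes of the cell cycle were lower against all other keratinocytes. With 3 or more of 12 G2 and mitosis genes detected, 19.2% and 25.6% of gated cells were counted, against 30.4% and 30.4% of all other keratinocytes. After thinning, the shares were 17.7% and 18.5% against 25.01% and 24.7%, and the exact 95% intervals of 11.6 to 25.4% and 12.9 to 25.4% in gated cells reach the other shares. Of 15 S phase genes 9 were lower, with a median of -0.55, and of 12 G2 and mitosis genes 3 were lower. No gene of either list was higher in edgeR's test, none at an unadjusted p under 0.05, and none in DESeq2. The edgeR fit without the library term called no gene of either list, with 2 of each list lower at an unadjusted p under 0.05, and DESeq2 called 2 and 1. Ccnd1 (cyclin D1) had 138 and 115 against 386 and 310.5 CPM (-1.51 ± 0.10, edgeR adjusted p = 6.35e-12), and the brake Cdkn1a 46.0 and 40.5 against 166 and 127 (-1.80 ± 0.13). Of 16 brakes and G1 cyclins 2 were higher and 6 lower. Against other contractile keratinocytes, edgeR called none of the 15 S phase and none of the 12 G2 and mitosis genes in either direction, with 6 S phase genes lower at an unadjusted p under 0.05, and DESeq2 called none.

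Immediate early genes, which can also rise during dissociation, gave 11 lower and 1 higher of 20. Klf4 had 145 and 131 CPM in gated cells and 449 and 500.05 in the rest (-1.84 ± 0.10, edgeR adjusted p = 1.56e-13), and Atf3 991 and 1095 against 1627 and 1713 (-0.73 ± 0.08). Heat shock genes gave 2 higher and 2 lower of 11, and glycolysis and hypoxia genes 3 higher and 3 lower of 18. These counts stand beside 9.24% higher and 11.4% lower over all genes tested. The 3 higher glycolysis genes were Pfkl, Pgam1 and Ldha, with 363 and 344 against 246 and 240.4 CPM for Ldha (0.48 ± 0.09).

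The genes named as lowest include transcripts of other cells. Col3a1 had 4.87 and 0.450 CPM in gated cells and 197 and 145 in all other keratinocytes (-6.15 ± 0.25), Col1a1 4.87 and 4.05 against 161 and 133 (-5.09 ± 0.20), and Col1a2 and Vim log2 fold changes of -5.60 ± 0.23 and -4.97 ± 0.22. These are fibroblast genes, and a cell with 1 keratin UMI counts as a keratinocyte here. A Col1a1 UMI was seen in 5.38% and 4.88% of gated cells and in 4.32% and 3.70% of the rest. For Col3a1 the shares were 6.15% and 0.610% against 3.89% and 1.62%. The gap in CPM was thus not matched by the share of cells with a UMI. Against other contractile keratinocytes edgeR called none of the 6 fibroblast markers, with a median log2 fold change of -4.70. Among cells with at least 20 UMIs of Krt5 and Krt14, the log2 fold change was -3.63 for Col3a1, -2.42 for Col1a1 and -3.82 for Vim. That limit left 107 and 127 gated cells. The keratinocyte genes Tcim, Anxa8, Krt6a and Tgfbi were lower too, with 3.25 and 5.40 against 71.4 and 44.7 CPM for Krt6a (-3.73 ± 0.26) and 0.542 and 8.10 against 23.3 and 95.1 for Tgfbi (-3.82 ± 0.26). Tgfbi did not pass without the library term (adjusted p = 0.10).

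Most marker lists of other cell and follicle types held lower genes, beside 11.4% lower over all genes tested. Against all other keratinocytes, all 6 fibroblast markers were lower, as were 3 of 4 tested smooth muscle and pericyte markers, 3 of 5 immune, 2 of 3 melanocyte, 2 of 4 sebocyte and the 1 endothelial marker tested. Of the 2 Schwann cell markers tested none passed edgeR's test, none had an unadjusted p under 0.05, and DESeq2 called none. Of follicle layers, 3 of 6 inner root sheath, 2 of 3 companion layer and 6 of 7 upper follicle markers were lower. Krt75 of the companion layer and Krt25 and Tchh of the inner root sheath were lower in replicate 1 but higher in replicate 2. Krt75 had 41.7 and 71.1 CPM in gated cells and 55.3 and 25.9 in the rest. With other contractile keratinocytes as the reference, edgeR called none of the 5 inner root sheath and 7 upper follicle markers tested. Their median log2 fold changes were 1.44 and -1.06. Krt6a and Krt16 of the companion layer were lower there too. Among Merkel cell markers Krt18 was higher, at 45.5 and 30.6 against 15.0 and 8.42 CPM (1.67 ± 0.18), while the defining Krt20 and Atoh1 were at 0 in gated cells.

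A closer comparison set the gated cells against contractile keratinocytes, with at least 5 Tagln and Acta2 UMIs, that had at most 1 of the 4 genes. These numbered 1498 and 870 cells. The 2 classes were not matched in contractile level. Of the gated cells, 98 of 130 and 109 of 164 had at least 50 such UMIs. Of the other contractile cells, 356 of 1498 and 231 of 870 did. This fit has 8 sums and 3 residual degrees of freedom, to which edgeR added a median prior of 5.84. By edgeR's test, 346 of 11801 genes (2.93%) were higher and 370 (3.14%) lower, or 6.07% in all. Scaling by library totals alone gave 446 higher and 308 lower, so that 59.2% of calls were higher against 48.3%. The fit without the library term gave 79 higher and 45 lower. With at least 50 Tagln and Acta2 UMIs on both sides, 83 were higher and 68 lower. This limit was added after the data were seen.

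The 8 genes named as higher against other contractile cells were all among the 16 named above. Cux1 had 329.9 and 453 CPM in gated cells and 27.0 and 68.3 in contractile cells with at most 1 of the 4 genes (3.09 ± 0.20, edgeR adjusted p = 3.64e-04). Slc7a11 had 226 and 197 against 20.7 and 31.1 CPM (2.97 ± 0.32), and Flrt2 551 and 495 against 53.7 and 94.4 (2.80 ± 0.27). Ackr3, Fhl1, Asns and Porcn were higher by 2.78 ± 0.19, 2.76 ± 0.17, 2.69 ± 0.20 and 2.61 ± 0.14. Adamts5 was higher by 2.71 ± 0.48, but did not pass without the library term or with at least 50 contractile UMIs. The gated values lay above those of the other contractile cells in both libraries for all 8 genes, which the choice of named genes required.

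Among genes lower than in other contractile cells, Sfrp1 had 35.2 and 47.2 CPM against 329.8 and 418 (-3.24 ± 0.28, edgeR adjusted p = 8.20e-04). Inhbb had 8.67 and 3.60 against 58.9 and 50.2 CPM (-3.29 ± 0.30), and Barx2 72.6 and 42.3 against 334 and 264 (-2.50 ± 0.18). Fst had 16.2 and 22.5 against 97.9 and 110.0 (-2.47 ± 0.23), which was -1.14 and no longer passed with at least 50 contractile UMIs. The glutathione transferase gene Mgst1 had 61.2 and 27.0 against 341 and 259 CPM (-2.97 ± 0.27), and the oxygen sensor gene Egln3 13.5 and 8.99 against 60.7 and 60.9 (-2.57 ± 0.39). Neither Mgst1 nor Egln3 passed without the library term.

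Between the 2 contractile classes, which were not matched in Tagln and Acta2 UMIs, 6.07% of all genes tested were called. Of 33 contraction genes tested, Cnn1, Myl9, Zyx and Actb were higher and Mylk and Myl12b lower, with a median of 0.18 against -0.01 over all genes. Cnn1 had 36.8 and 36.4 CPM in gated cells and 2.64 and 8.64 in the other contractile cells (2.80 ± 0.37, edgeR adjusted p = 0.00356). Without the library term edgeR called none of the 33, with 7 higher and 2 lower at an unadjusted p under 0.05, and DESeq2 with the term called 5 higher and 3 lower. With separate UMIs for choosing and measuring 1 was higher. Msx1, Msx2 and Dlx3 of the hair germ list were higher, with 66.1 and 55.8 against 19.6 and 14.7 CPM for Dlx3 (1.78 ± 0.20). Of 20 bulge genes 4 were lower and Tbx1 higher, and of 16 outer sheath genes 9 were lower. Lor was higher by 2.83 ± 0.25, and Prlr and Igfbp3 by 2.38 ± 0.24 and 2.51 ± 0.24.

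Levels stepped across 4 classes of keratinocytes. These were cells with fewer than 5 contractile UMIs and at most 2 of the 4 genes, contractile cells with at most 1 gene, contractile cells with exactly 2 (205 and 165 cells), and gated cells. Flrt2 went from 37.1 and 33.1 to 53.7 and 94.4, 224 and 391 and 551 and 495 CPM. Slc7a11 went from 7.52 and 3.42 to 20.7 and 31.1, 133 and 151 and 226 and 197. Both genes were already high in cells with 2 of the 4 genes, a class the rule leaves out. Cux1 did not rise with the contractile genes alone: it had 52.8 and 82.4 CPM in the first class, 27.0 and 68.3 in the second, 165 and 320.2 in the third and 329.9 and 453 in gated cells. Since each class was cut by the number of genes detected, the order of the classes is a description without a test.

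**Figure D5:**
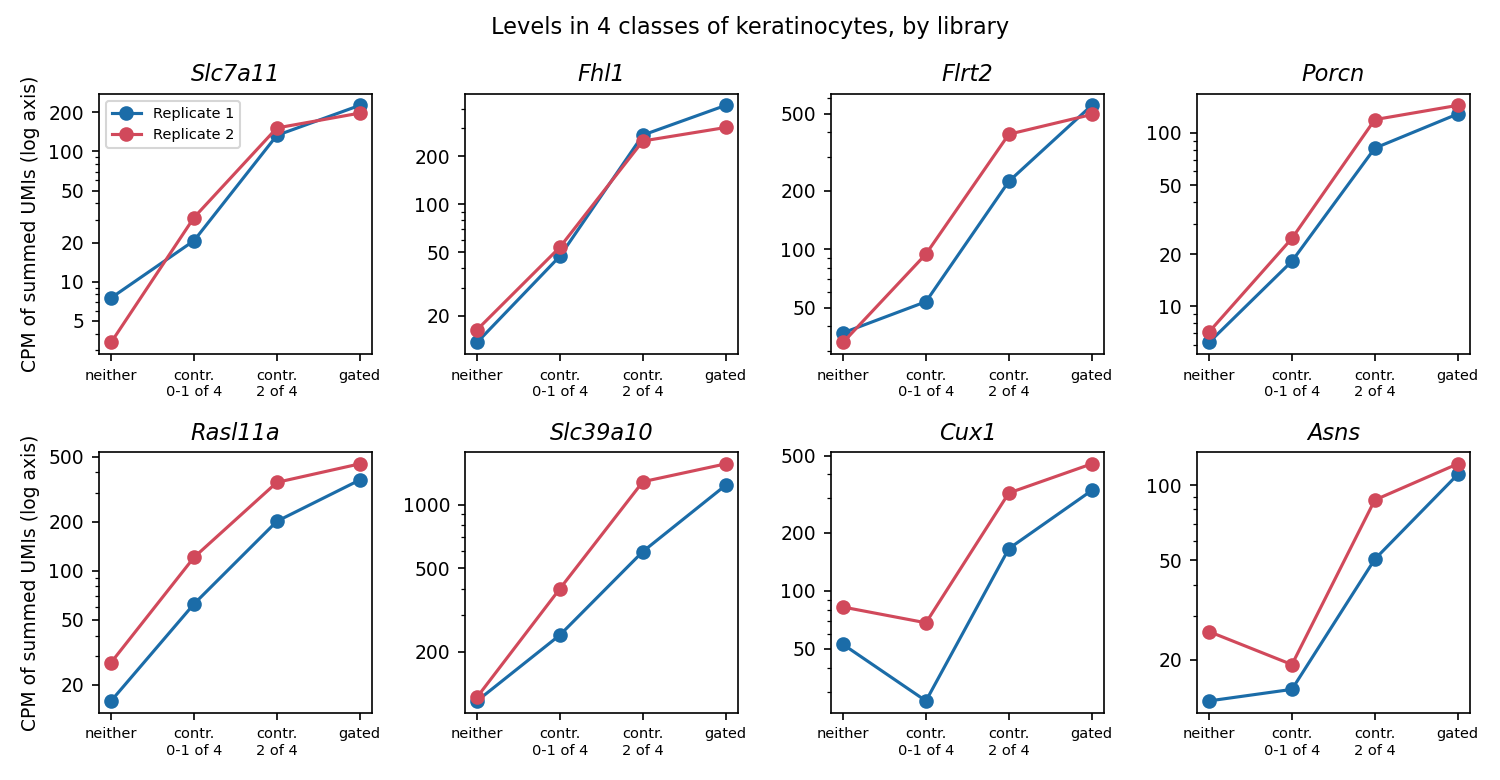
Level (CPM of summed UMIs, log axis) of 8 genes in 4 classes of keratinocytes, 1 line per library: neither (under 5 contractile UMIs, at most 2 of the 4 genes), contractile with 0 or 1, contractile with 2, and the gated cells. All 8 are highest in gated cells, and Cux1 is lowest in contractile cells with 0 or 1 of the genes.

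The spread among the gated cells was described by a rank over genes. Ranked by the variance of Pearson residuals against a Poisson-like model of depth, over 7480 genes and averaged over the libraries, Fos, Jun, Malat1 and Fabp5 came first. Fos ranged from 0 to 186 UMIs per cell with a median of 40 in replicate 1, and to 261 with a median of 36 in replicate 2. The cycling genes H2afz and Stmn1 were among the first 11, with Stmn1 at a median of 1 UMI and a highest value of 64 and 108. Fabp5, a fatty acid binding protein, had medians of 4 and 4.5 UMIs and highest values of 218 and 562. Between the libraries, Acta2 was lower in the gated cells of replicate 2, at 2663 and 1785 CPM, and Pthlh stood at 290.3 and 73.3. The rank describes spread within these 294 cells and was not tested.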

How the data were processed

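Single-cell 3′ transcriptomes of sorted hair follicle cells were measured in 2 libraries of 1 group. The authors deposited UMI counts, whole numbers per gene and barcode without normalization. Per the submitters' processing notes, Cell Ranger 3.1.0, Seurat 3.1 and build mm10 were used, and doublet removal is not given in the sources used here. Replicate 1 holds 52344178 UMIs in 6592 barcodes and replicate 2 holds 38678103 in 5080.

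Kept cells had 1000 or more genes, and mitochondrial UMIs made up no more than 10%. Doublets were scored with Scrublet in scanpy 1.11.5 and left in. The members and gene lists were chosen with earlier results of these data known. Counts were summed per class and library. The sums were tested with edgeR 4.0.16 (quasi-likelihood, TMM, filterByExpr, library as a term, two-sided, Benjamini-Hochberg), checked on simulated data. The library term pairs classes cut from the same library. DESeq2 1.42.0 was an alternative. CPM are shares of summed UMIs, and log2 fold changes are edgeR's. Named genes are the 16 of highest and 10 of lowest log2 fold change against all other keratinocytes, and the 8 and 6 against contractile ones, with an adjusted p under 0.05, the same direction in both libraries and at least 50 CPM in the higher class. Genes of 34 lists are described besides. Keratinocytes with the 4 genes but few contractile UMIs (3 and 4 cells) were too few for a further planned comparison, which needed 20 cells per class. Intervals and limits of 3 counts cover counting error only.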

Additional observations from a re-analysis of the deposited data

Results flagged for a closer look

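Barcodes outside the cell filters also met the gene rule. In replicate 1, 5 of 2674 barcodes that had fewer than 1000 genes or more than 10% mitochondrial UMIs carried at least 3 of the 4 genes Fgf5, Fbln5, Pid1 and Kcnk1 and at least 5 UMIs of Tagln and Acta2. Their median was 5241 UMIs and 11.4% mitochondrial UMIs. It was flagged as a signal in barcodes that the comparisons do not use, since the count is above the limit of 3 counts that a count of 0 allows. In replicate 2 there were 3 such barcodes of 2039, which does not pass that limit.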

How the results depend on the processing

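Of 40 fold changes of named genes, none turned direction under the alternatives it was recomputed for. These were 26 fold changes for a limit of 10 Tagln and Acta2 UMIs, 14 for a limit of 50 and all 40 otherwise. With 1 library left out the direction was largely fixed, since named genes had to share it in both libraries. Against all other keratinocytes, the counts of higher and lower genes were 1199 and 1477. They were 522 and 571 with DESeq2, 283 and 278 with no replicate block (the fit without the library term), and 513 and 781 when cells were chosen and measured on separate UMIs, drawn with a probability of 0.5. Against other contractile keratinocytes, 346 and 370 became 79 and 45 with no replicate block, 545 and 1006 without a filter on low counts, 127 and 111 with cells chosen and measured on separate UMIs, and 218 and 236 at no more than 5% mitochondrial UMIs. A limit of 50 Tagln and Acta2 UMIs, chosen after seeing the data, gave 83 and 68. The causes were not tested. Of the 1199 higher genes, 1198 and 1195 kept their direction with either library alone, which gives no test, and of the 1477 lower genes 1477 and 1475, so a few genes turned. The mean share of gated cells, 4.40%, was 1.32% with all 4 genes required, 1.53% after thinning to 5000 UMIs, and 6.91% at no more than 5% mitochondrial UMIs, and it ranged from 3.35% to 5.46% with 1 library left out. Limits of 20 keratin UMIs and a set without cycling cells were also added after seeing the data and changed no call of a named gene. Depth limits the genes with few UMIs in gated cells, such as Lor, Nfatc1 and Foxc1. The planned comparison with keratinocytes that had the 4 genes but few contractile UMIs was not run, since there were 3 and 4 such cells.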
